A study of Mus musculus with 10 samples.

Results

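Collagens are the main structural proteins of the extracellular matrix, and the hippocampus carries them mainly in the basement membranes of its vessels, in the meninges and perivascular spaces and, as transmembrane forms, on neurons. The 55 genes described here are collagen chains and the proteins that modify and fold them. They were chosen by gene symbol, as every collagen chain with a transcript cluster of its own on the array together with the prolyl 3-hydroxylase family, the prolyl 4-hydroxylase alpha subunits, the lysyl hydroxylases, the collagen chaperone Serpinh1 and the lysyl oxidase Lox. The group was put together around P3h4, which was selected on its difference between the mouse lines in these same arrays, so that the line difference of P3h4 is given below as a description and carries no test. There are 43 collagen genes and 12 enzymes and chaperones among the 22206 transcript clusters of the array. Plod3 and Col7a1 were measured only in clusters that carry a second symbol and were left out for that reason (2 genes).

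Total RNA came from whole, snap-frozen hippocampi of male mice, 5 of the line DU6 and 5 of the line FztDU, with 1 mouse per Clariom S Mouse array. DU6 is an outbred line selected over many generations for high body mass and is labelled as polygenic obesity, and FztDU is the outbred line from which it was derived and serves as its control. No transgene, drug or diet was applied, both lines were kept under specific-pathogen-free conditions, and selection and drift cannot be told apart in lines that were bred separately. The sample labels give an age of 21 to 22 weeks, as do the methods in part, whereas another passage of the study names a younger age for the array mice. The values are log2 signals of transcript clusters, normalized between arrays by the authors, and a difference is always the DU6 mean minus the FztDU mean on that log2 scale. A bulk tissue signal does not separate fewer cells of a type from less RNA per cell.

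A collagen chain is a long run of glycine-led triplets that winds with its partner chains into a rope-like helix inside the endoplasmic reticulum. Before folding, prolyl 4-hydroxylases modify prolines that hold the helix together, prolyl 3-hydroxylases modify a few selected prolines, and lysyl hydroxylases prepare lysines for cross-links and sugars. Serpinh1, also called HSP47, then binds the folded helix on its way out of the cell, and lysyl oxidases join the chains outside it. P3h4 itself belongs to the prolyl 3-hydroxylase family but has no enzymatic activity. In mouse skin and bone it forms a complex with P3h3 and Plod1, the lysyl hydroxylase that acts on helical lysines.

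Promoter sequences are shown for the genes on which the results below turn, as far as RefSeq windows on GRCm38.p6 were at hand. Each window runs from 250 bases before to 50 bases after the annotated start and is written in the direction of the gene. Of the 55 genes, 42 had a window, 46 windows in all, and P3h4 was not among them. Capitals mark GGGCGG, the core of the GC box, and CCAAT, each on either strand (CCGCCC and ATTGG), with overlapping matches joined. P4ha3 is shown for its line difference, Col18a1 for its spread between arrays, with one window for each of its 2 annotated starts, and Col4a1 with Col4a2 because these partner chains start back to back.
P4ha3, chr7:100285270-100285569, plus strand: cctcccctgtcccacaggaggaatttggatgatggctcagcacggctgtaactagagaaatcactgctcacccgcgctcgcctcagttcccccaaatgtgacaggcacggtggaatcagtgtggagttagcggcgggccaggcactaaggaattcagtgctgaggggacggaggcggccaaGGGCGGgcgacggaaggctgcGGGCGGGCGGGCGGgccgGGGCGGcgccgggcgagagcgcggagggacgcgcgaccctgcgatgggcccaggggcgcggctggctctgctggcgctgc
Col18a1, first window, chr10:77166481-77166780, minus strand: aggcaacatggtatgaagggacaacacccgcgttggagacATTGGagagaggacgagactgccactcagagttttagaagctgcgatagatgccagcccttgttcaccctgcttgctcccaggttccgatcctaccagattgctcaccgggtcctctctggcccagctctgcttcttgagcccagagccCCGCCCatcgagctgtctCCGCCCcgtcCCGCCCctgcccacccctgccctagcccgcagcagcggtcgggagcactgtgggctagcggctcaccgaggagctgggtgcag
Col18a1, second window, chr10:77113656-77113955, minus strand: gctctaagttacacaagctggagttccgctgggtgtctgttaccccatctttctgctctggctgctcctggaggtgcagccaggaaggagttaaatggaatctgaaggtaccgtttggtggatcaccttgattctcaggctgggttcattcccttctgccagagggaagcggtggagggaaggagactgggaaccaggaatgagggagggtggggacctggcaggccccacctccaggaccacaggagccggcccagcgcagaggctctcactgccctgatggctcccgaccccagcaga
Col4a1, chr8:11312777-11313076, minus strand: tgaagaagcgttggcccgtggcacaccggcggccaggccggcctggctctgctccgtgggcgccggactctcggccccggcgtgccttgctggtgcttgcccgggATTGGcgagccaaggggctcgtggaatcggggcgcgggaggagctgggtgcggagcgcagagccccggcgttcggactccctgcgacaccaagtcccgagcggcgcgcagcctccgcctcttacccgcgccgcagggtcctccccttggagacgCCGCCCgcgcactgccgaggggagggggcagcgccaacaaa
Col4a2, chr8:11312555-11312854, plus strand: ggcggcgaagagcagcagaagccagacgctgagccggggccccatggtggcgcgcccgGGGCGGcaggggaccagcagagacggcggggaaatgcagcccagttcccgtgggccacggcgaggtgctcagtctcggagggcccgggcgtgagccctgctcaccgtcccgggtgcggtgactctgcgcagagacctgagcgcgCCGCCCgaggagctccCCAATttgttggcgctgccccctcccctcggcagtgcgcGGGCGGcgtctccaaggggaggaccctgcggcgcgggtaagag

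In the P4ha3 window 5 GC boxes, some overlapping, began between 69 and 30 bases before the start. It was the 1 window of the 46 with at least 5 (2.17%), beside 2.71% of all 32851 windows. The first Col18a1 window held 3 GC boxes between 61 and 33 bases before its start, and the second held 0. A GC box on either strand occurred in 30 of the 46 windows of these genes (65.2%), against 35.7% of all windows, and the windows of these genes were also richer in G and C, with a median of 60.0% against 52.7%. CCAAT occurred in 30.4% of the windows of these genes, against 37.4% of all windows, and TATAAA in 17.4%, against 13.6%. These are matches of letters and not sites of binding.

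The authors called 48 of the 55 genes expressed in DU6, 47 in FztDU and 46 in both, so that 49 (89.1%) were called expressed in at least 1 line, against 85.6% of all clusters. The 6 called in neither line were Col24a1, Col5a1, Col10a1, Col8a1, Col19a1 and Lox. Col3a1 and Col5a3 were called in DU6 alone and Col4a5 in FztDU alone. No difference of level was read from these calls, and every gene was kept in the tests.

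Markers of neighbouring tissues were high in some arrays. Markers of choroid plexus epithelium (10 of 10 measured and called expressed) had mean deviations of 2.16 in DU6 replicate 1, 2.06 in DU6 replicate 5 and 1.72 in FztDU replicate 5, against -1.24 to -0.11 in the other 7 arrays. Markers of cerebellar neurons (9 of 10 measured, 7 called expressed) had a mean deviation of 4.28 in DU6 replicate 2, against -0.68 to -0.18 in the other arrays. Hippocampal neuron markers (9 of 10 measured, 9 called expressed) ran from -0.55 in that array to 0.29 in DU6 and from -0.13 to 0.13 in FztDU. These 4 arrays are called the arrays that stand apart, and the results below are also given without them where they matter.

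P3h4 lies on the minus strand of chromosome 11 from 100408456 to 100414836 (mm10). Its log2 signal was 6.77, 6.79, 6.95, 6.98 and 7.13 in the DU6 arrays, against 5.87, 6.37, 5.99, 5.73 and 6.16 in the FztDU arrays. The lowest DU6 array thus stood above the highest FztDU array. The means were 6.92 ± 0.15 in DU6 and 6.02 ± 0.25 in FztDU (SD, n = 5 each), a difference of 0.90 and a 1.87-fold ratio. On these values that is under the 2-fold threshold used for a call. The authors' line averages lie on a wider scale, so a fold here can be smaller than theirs for the same gene. The difference of 0.90 is the one for which P3h4 was chosen. It lay between 0.83 and 0.99 in all alternatives computed and was 0.92 without the 3 arrays rich in choroid plexus markers and 0.98 without the 4 arrays that stand apart.

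The lines overlapped in the partners of P3h4. P3h3, which joins P3h4 and Plod1 in their complex, had 5.53, 5.45, 4.73, 5.53 and 5.40 in DU6, against 5.14, 5.08, 5.18, 5.41 and 5.19 in FztDU. The DU6 values of P3h3 enclosed all those of FztDU, because DU6 replicate 3 lay far below the rest of its line, and the difference was 0.13 (95% interval -0.20 to 0.45, adjusted p = 0.992 in limma). Plod1 had 5.98, 6.40, 6.12, 6.27 and 6.35 in DU6, against 6.21, 6.27, 6.26, 5.85 and 6.23 in FztDU. Its difference was 0.06 (95% interval -0.19 to 0.31, adjusted p = 0.994).

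The other members of the prolyl 3-hydroxylase family overlapped between the lines as well. P3h1, which works with Crtap in the 3-hydroxylation of fibrillar collagens, had 4.42, 4.59, 4.45, 4.55 and 4.15 in DU6, against 3.76, 4.46, 4.65, 4.34 and 4.54 in FztDU. P3h2, the member known for acting on basement membrane collagen, had 5.89, 5.07, 5.84, 5.09 and 5.52 in DU6, against 5.39, 5.28, 5.31, 5.34 and 5.66 in FztDU. Of the DU6 mice, 2 lay below and 2 above all FztDU mice. Crtap, the cartilage-associated helper protein without enzymatic activity, had 6.67, 5.27, 5.09, 4.77 and 5.76 in DU6, against 5.77, 5.22, 5.0, 5.78 and 6.17 in FztDU. The differences were 0.08 for P3h1 (95% interval -0.26 to 0.43), 0.09 for P3h2 (-0.28 to 0.45) and -0.08 for Crtap (-0.78 to 0.63). None of these 3 passed the test (adjusted p = 0.994, 0.994 and 0.995 in limma).

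**Figure D1:**
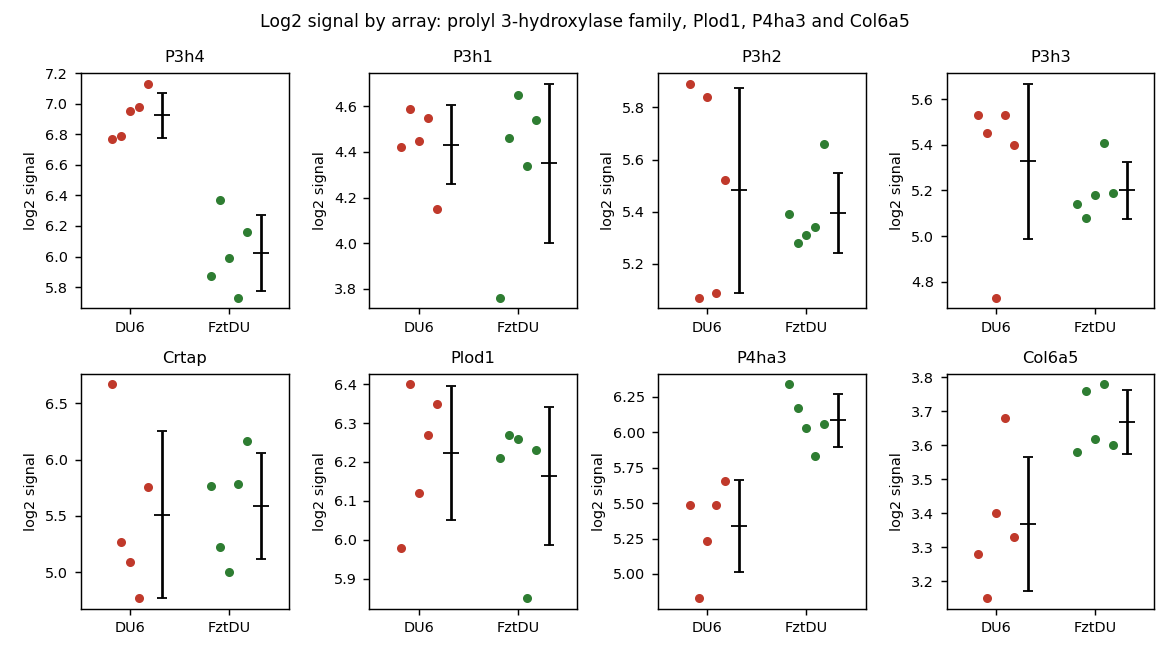
Log2 signal (vertical axis, scaled per gene) of the prolyl 3-hydroxylase family, Plod1, P4ha3 and Col6a5 in each array, DU6 left and FztDU right; points are mice and bars are the mean with its SD (n = 5 each). P3h4 lies at 6.77 to 7.13 in DU6 and 5.73 to 6.37 in FztDU, P4ha3 at 4.83 to 5.66 in DU6 and 5.83 to 6.34 in FztDU, and the other 6 genes overlap between the lines.

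The surroundings of P3h4 on chromosome 11 were examined to see whether its neighbours moved with it. Within 1 Mb there were 109 other clusters, with a median difference of -0.002 and a range of -0.63 to 0.42. Of these, 0 reached an adjusted p under 0.05 in limma, beside 0.162% of all clusters. An unadjusted p under 0.05 was found for 5, 3 of them higher in DU6, beside 5.86% of all clusters. Arrays did not overlap between the lines for 1 of the 109, beside 1.22% of all clusters. Fkbp10, a prolyl isomerase of the endoplasmic reticulum that takes part in collagen cross-linking, begins 858 bases from P3h4 on the other strand. It had 5.16, 4.90, 5.64, 5.39 and 5.38 in DU6, against 5.0, 5.17, 5.54, 5.01 and 4.76 in FztDU. The lines overlapped, and the difference was 0.20 (adjusted p = 0.983).

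P4ha3, on the plus strand of chromosome 7 from 100285520 to 100319699, encodes the third catalytic alpha subunit of prolyl 4-hydroxylase. Its log2 signal was 5.49, 4.83, 5.23, 5.49 and 5.66 in DU6, against 6.34, 6.17, 6.03, 5.83 and 6.06 in FztDU. Every DU6 array lay below every FztDU array. The means were 5.34 ± 0.32 in DU6 and 6.09 ± 0.19 in FztDU (SD, n = 5 each), a difference of -0.75 (standard error 0.15, 95% interval -1.08 to -0.41). The exact two-sided permutation test gave p = 0.00794, the smallest that 5 against 5 arrays allow, but over all clusters the adjusted p was 0.104 in limma, so that P4ha3 did not pass the threshold. Leaving out 1 array at a time kept the difference between -0.83 and -0.62 with an adjusted p of 0.0967 to 0.251. Without the 4 arrays that stand apart the difference was -0.73. Over all alternatives the adjusted p in limma ran from 0.0569 with array weights to 0.549 without those 4 arrays.

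The lines overlapped in the other alpha subunits. P4ha1, the main alpha subunit of most tissues, ran from 8.27 to 8.82 in DU6 and from 8.43 to 8.82 in FztDU, with a difference of -0.24 (95% interval -0.51 to 0.03, adjusted p = 0.912). P4ha2 ran from 5.16 to 5.52 in DU6 and from 5.09 to 5.47 in FztDU, with a difference of 0.05 (95% interval -0.19 to 0.29, adjusted p = 0.994). Both are outside the rule for named genes and stand here as the other members of the P4ha3 family. Within 1 Mb of P4ha3 there were 37 other clusters, with differences from -0.25 to 0.36 and a median of -0.01. None of the 37 reached an adjusted p under 0.05 in limma, beside 0.162% of all clusters. An unadjusted p under 0.05 was found for 1, higher in DU6, beside 5.86% of all clusters in either direction.

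The remaining enzymes and the chaperone overlapped between the lines. Plod2, the lysyl hydroxylase of the chain ends, had 5.70, 5.86, 5.63, 5.78 and 5.68 in DU6, against 6.09, 5.31, 4.94, 5.30 and 5.78 in FztDU. The 5 DU6 mice lay close together (SD 0.09), while the FztDU mice spread widely (SD 0.45), and the difference was 0.25 (adjusted p = 0.980). The spreads were not tested against each other. Serpinh1 differed by 0.08 (95% interval -0.24 to 0.41, adjusted p = 0.994) and Lox, which the authors called expressed in neither line, by 0.15 (95% interval -0.18 to 0.48, adjusted p = 0.992).

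Col6a5 was the 1 collagen with an unadjusted p under 0.05. It encodes one of the longer collagen VI chains and lies on the minus strand of chromosome 9 from 105856070 to 105960643. Its log2 signal was 3.28, 3.15, 3.40, 3.68 and 3.33 in DU6, against 3.58, 3.76, 3.62, 3.78 and 3.60 in FztDU. DU6 replicate 4 lay among the FztDU arrays and the other 4 DU6 arrays below them. The difference was -0.30 (standard error 0.11, 95% interval -0.54 to -0.06), with p = 0.0317 in the exact two-sided permutation test and an adjusted p of 0.699 in limma, so that it did not pass. Without the 4 arrays that stand apart the difference was -0.15. The adjacent genes Col6a4 and Col6a6, named here for their position, differed by 0.19 (adjusted p = 0.902) and -0.14 (adjusted p = 0.992).

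Across all 55 genes, 0 were called at an adjusted p under 0.05 with a fold change over 2, beside 0.113% of all 22206 clusters. At an adjusted p under 0.05 alone there was 1, P3h4 itself, beside 0.162% of all clusters (0.036% higher and 0.126% lower in DU6), and nothing is read from it because P3h4 was chosen for that difference. At an unadjusted p under 0.05 there were 3 (5.45%), beside 5.86% of all clusters. Of these, 1 was higher in DU6 (P3h4), where the share of all clusters was 2.7%, and 2 were lower (P4ha3 and Col6a5), where it was 3.17%. For 2 genes no array of DU6 overlapped those of FztDU (3.64%), beside 1.22% of all clusters. P3h4 was the 1 with every DU6 array above, beside 0.513%, and P4ha3 the 1 with every DU6 array below, beside 0.712%. Without P3h4, 2 of 54 genes (3.70%) had an unadjusted p under 0.05, and 1 of 54 (1.85%) had no overlap.

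The median difference of the 55 genes was 0.05, with 33 above 0, 21 below and Col9a2 at 0, against a median of 0.002 over all clusters. Without the 3 arrays rich in choroid plexus markers it was -0.12, without the 4 arrays that stand apart -0.04 and without DU6 replicate 5 alone -0.02, so that its sign depended on these arrays. The 43 collagen genes had a median of 0.03 and ran from -0.30 to 0.59. Of the 11 fibril-forming collagens, which build the banded fibrils of connective tissue, 8 lay above 0 and 3 below, from -0.11 to 0.41. The 6 collagen IV chains, the network of basement membranes, ran from -0.18 to 0.26, the 6 collagen VI chains from -0.30 to 0.19 and the 3 short-chain network collagens from -0.30 to 0.08. The 9 fibril-associated collagens lay closest to 0, from -0.04 to 0.14, and the 4 transmembrane collagens ran from -0.23 to 0.12. In none of these 6 groups did a gene reach an adjusted p under 0.05 in limma, and Col6a5 was the 1 gene of them with an unadjusted p under 0.05. The smallest adjusted p among the fibril-forming collagens was 0.902.

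**Figure D2:**
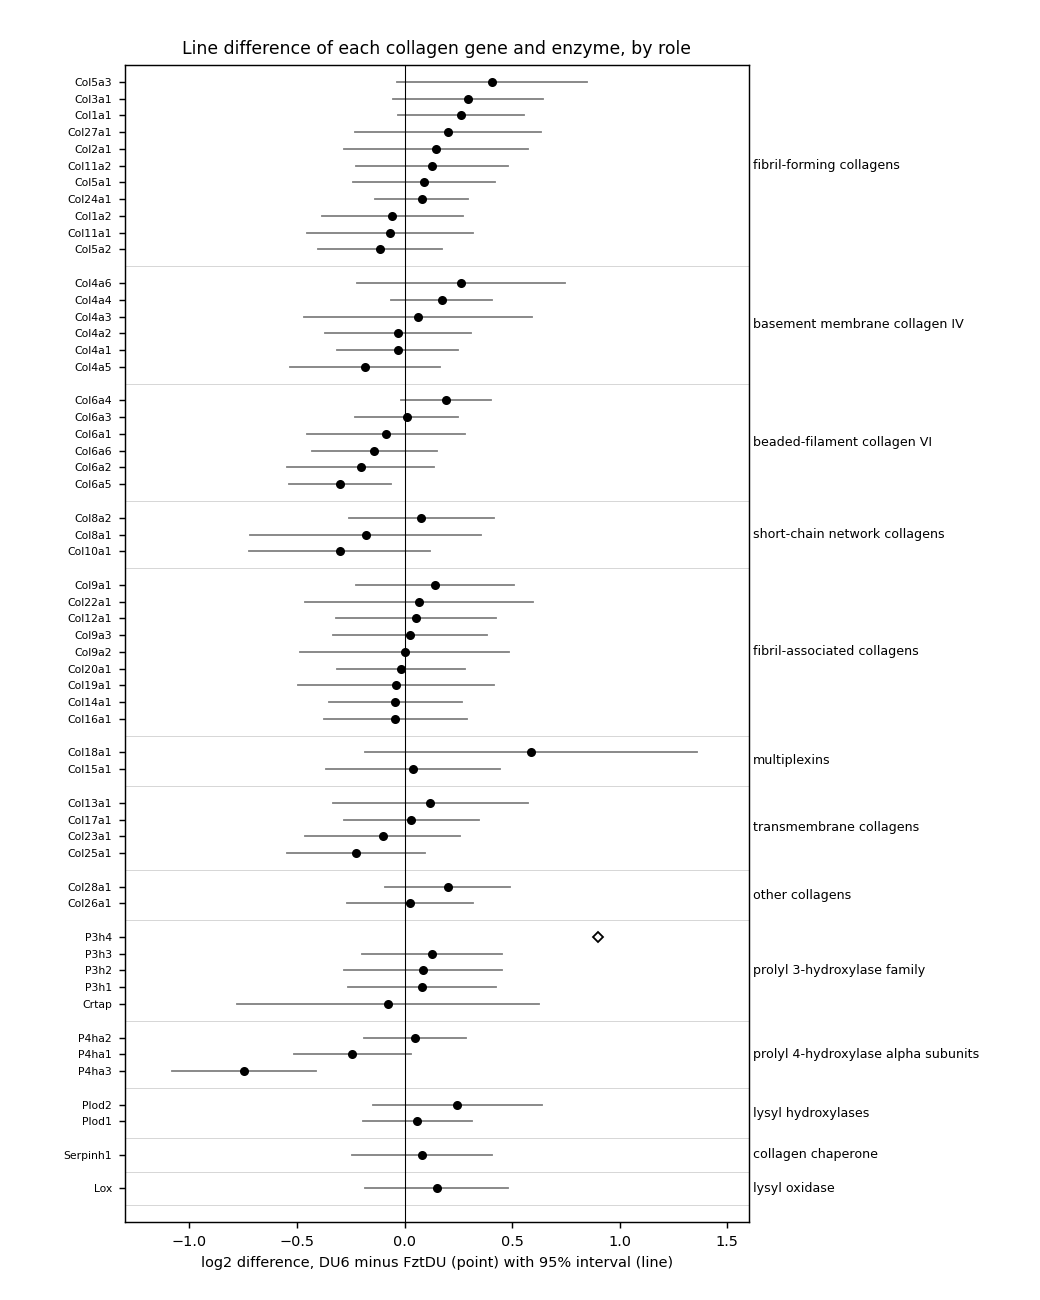
Log2 difference, DU6 minus FztDU, of each of the 55 genes (horizontal axis), grouped by role down the page; lines are 95% intervals from limma, and P3h4, the open diamond, has none because it was chosen for its difference. P4ha3 at -0.75 and Col6a5 at -0.30 are the 2 tested genes whose interval leaves out 0.

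The spread among mice of 1 line was close to that of clusters with like signal. The median SD within lines was 0.280 for the collagens and 0.260 for the enzymes, against 0.214 over all clusters and 0.262 over the 5183 clusters with signals like those of the collagens (between the quartiles of their mean signals). Many collagens lay on the same side of their mean in some arrays. In DU6 replicate 5, 40 of the 43 collagen genes lay above their own mean over the 10 arrays, with Col17a1, Col6a5 and Col4a5 as the exceptions, whereas in DU6 replicates 2 and 3 it was 6 and 5. DU6 replicates 1 and 4 had 22 and 32, and FztDU replicates 1 to 5 had 12, 26, 23, 33 and 13. Of all clusters, between 44.8% (DU6 replicate 2) and 52.4% (DU6 replicate 4) lay above their own mean in an array. The median deviation of the collagens was 0.29 in DU6 replicate 5, 0.18 in FztDU replicate 4, -0.17 in DU6 replicate 3 and -0.29 in DU6 replicate 2. The mice of both lines thus lay on both sides, and the DU6 mice held both ends.

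These counts moved together with the low end of the signal distribution. The lower quartile of all values was highest in DU6 replicate 5 (3.51), DU6 replicate 4 (3.49) and FztDU replicate 4 (3.48), the 3 arrays with the most collagens above their mean, and lowest in DU6 replicate 2 (3.29), FztDU replicate 5 (3.32) and DU6 replicate 3 (3.34). The 5183 clusters of like signal deviated by -0.09 to 0.08 in the median of an array. After centring on these clusters the counts were 36 of 43 in DU6 replicate 5 and 9 in each of DU6 replicates 2 and 3, and after quantile normalization 38, 9 and 9. The counts were closer together under both scalings but kept DU6 replicate 5 at the high end, and the part of array quality in them was not tested. The 12 enzymes and chaperones had another order of arrays. In DU6 replicates 1 and 5 and FztDU replicate 5, 9 lay above their mean, and in DU6 replicate 2 it was 8. The other arrays had 4 to 7, with 4 in DU6 replicate 3 and FztDU replicate 4 and 7 in FztDU replicate 2. The highest counts were thus those of the 4 arrays that stand apart, though DU6 replicate 2 was barely above FztDU replicate 2. The part of neighbouring tissue in these counts was not tested.

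**Figure D3:**
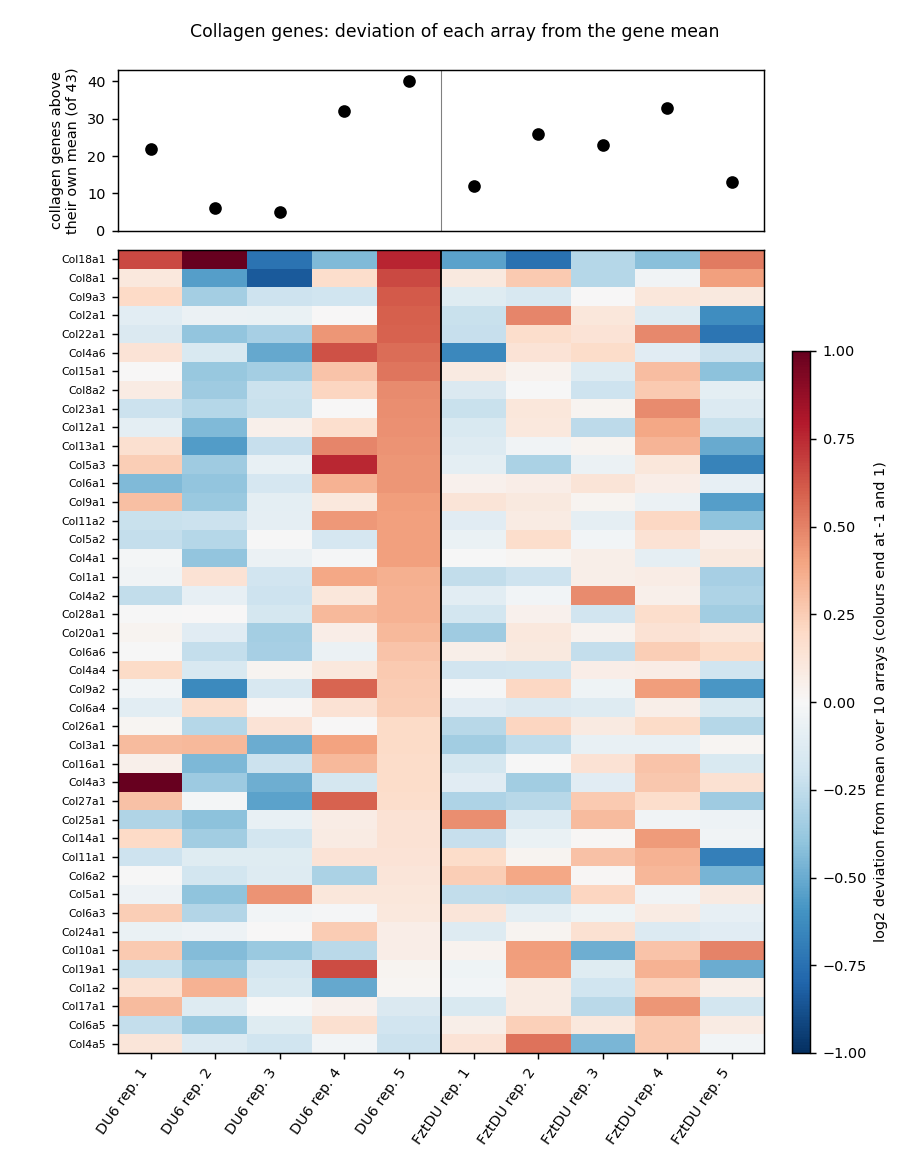
Deviation of each of the 43 collagen genes (rows) from its mean over the 10 arrays (columns, DU6 left and FztDU right), in log2 units by colour, and above it the number of collagen genes over their own mean. DU6 replicate 5 holds 40 of 43 above, and DU6 replicates 2 and 3 hold 6 and 5.

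Col18a1 had the largest spread within lines of the genes called expressed (SD 0.686). It encodes the core chain of a basement membrane proteoglycan whose end fragment is endostatin, and it lies on the minus strand of chromosome 10 from 77052178 to 77166548. Its log2 signal was 5.38, 5.94, 3.98, 4.28 and 5.48 in DU6, against 4.18, 3.97, 4.43, 4.30 and 5.24 in FztDU. The values fell into a high and a low group in both lines. The high ones, 5.24 to 5.94, were the 3 arrays rich in choroid plexus markers and the array rich in cerebellar markers, and the other 6 arrays lay between 3.97 and 4.43. Endothelial markers (10 of 10 measured and called expressed) split the arrays likewise, with mean deviations of 0.15 to 0.25 in these 4 and -0.43 to 0.01 in the other 6. Markers of pericytes and smooth muscle cells had 0.19 to 0.32 in the 3 choroid plexus arrays and -0.38 to 0.08 in the other 7. Col18a1 was the 1 gene of the 55 for which all 4 arrays that stand apart lay above the other 6, and 0 had all 4 below. The share of all clusters with this pattern was not counted, so nothing is read from the count. The line difference was 0.59 (95% interval -0.18 to 1.36, adjusted p = 0.967), with 3 of these 4 arrays in DU6. Without the 3 arrays rich in choroid plexus markers the line difference was 0.51 (adjusted p = 0.920 in limma). Without all 4 arrays it turned to -0.09 (adjusted p = 0.998). Both alternatives were chosen after seeing the data, and the second leaves out exactly the 4 highest arrays. The part of neighbouring tissue or of vessel cells in these values was not tested.

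Serpinh1 was the 1 gene of the 55 with all 3 choroid plexus arrays above the other 7, a pattern whose share of all clusters was not counted. It had 5.85, 5.59, 5.07, 5.36 and 5.73 in DU6, against 5.25, 5.61, 5.32, 5.35 and 5.66 in FztDU, and the gap to the next array was small. Crtap, the second most variable gene (SD 0.620), was highest in DU6 replicate 1 and FztDU replicate 5 and lay between 5.76 and 6.67 in the 3 choroid plexus arrays, against 4.77 to 5.78 in the other 7. Meningeal fibroblast markers (10 of 10 measured and called expressed) had means of 0.58 in DU6 replicate 1, 0.54 in DU6 replicate 5, 0.31 in FztDU replicate 4 and 0.21 in FztDU replicate 5, and lay below 0 in the other 6 arrays. The 5 arrays with the highest Crtap values were these 4 and FztDU replicate 1, and the part of either cell type in Crtap was not tested. Col4a3, a collagen IV chain best known from the glomerulus of the kidney, stood out in 1 array, with 4.18, 2.81, 2.69, 3.0 and 3.36 in DU6, against 3.06, 2.83, 3.06, 3.45 and 3.33 in FztDU.

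**Figure D4:**
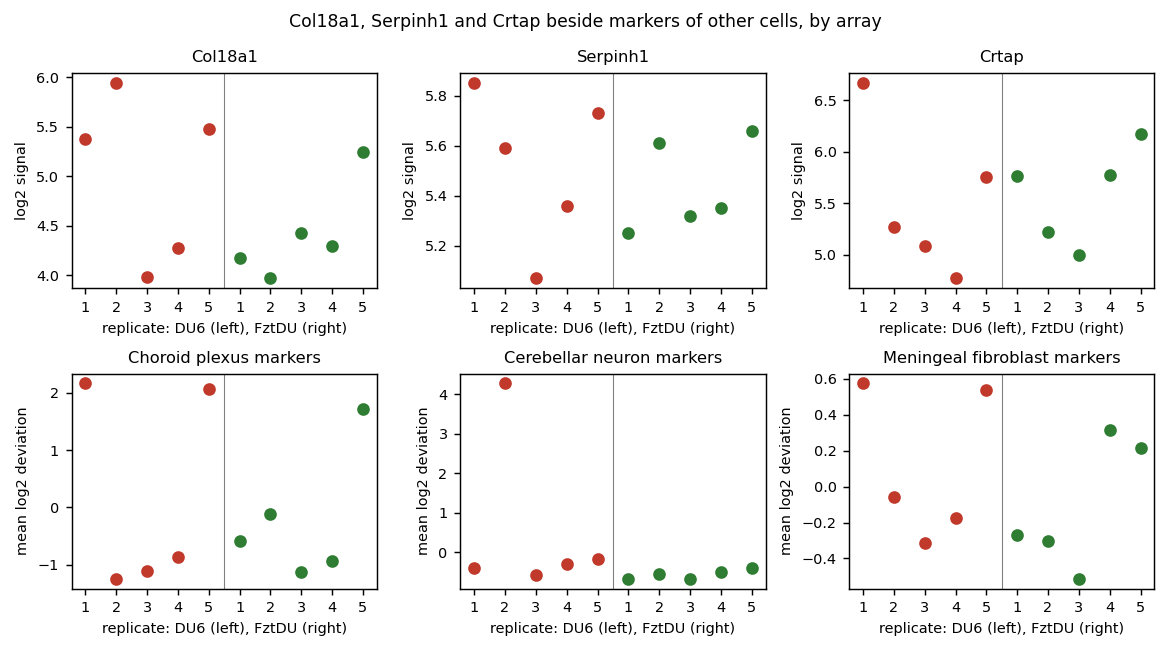
Log2 signal of Col18a1, Serpinh1 and Crtap (upper row) and mean log2 deviation of the choroid plexus, cerebellar neuron and meningeal fibroblast markers (lower row) in each array, DU6 left and FztDU right. Col18a1 is at 5.24 to 5.94 in the 4 arrays with high choroid plexus or cerebellar markers and at 3.97 to 4.43 in the other 6.

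Several of the other most variable collagens were high and low in the same arrays. Col22a1, a fibril-associated collagen of tissue junctions such as that of muscle and tendon, had 5.58, 5.33, 5.39, 6.16 and 6.31 in DU6, against 5.49, 5.90, 5.86, 6.20 and 4.99 in FztDU. Col13a1, a transmembrane collagen of cell contacts and the neuromuscular junction, had 6.29, 5.57, 5.90, 6.62 and 6.58 in DU6, against 6.0, 6.10, 6.16, 6.47 and 5.63 in FztDU. Col5a3, a chain of the collagen V that starts fibrils, had 4.89, 4.29, 4.57, 5.40 and 5.09 in DU6, against 4.55, 4.33, 4.59, 4.76 and 3.98 in FztDU. In these 3 genes DU6 replicates 4 and 5 and FztDU replicate 4 were the highest of their line, and FztDU replicate 5 was the lowest of the FztDU arrays. Col15a1, the other multiplexin, had 5.15, 4.77, 4.81, 5.43 and 5.68 in DU6, against 5.24, 5.18, 5.02, 5.46 and 4.74 in FztDU. It had the same arrays at its ends, and in DU6 replicate 2 and FztDU replicate 5, where Col18a1 was high, it was the lowest of its line. The arrays high in these genes were also those with the highest lower quartile of all values (3.48 to 3.51). The genes were picked for their spread, and the part of array scale in the shared order was not tested.

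Col4a6, a collagen IV chain, had 4.54, 4.25, 3.89, 5.04 and 4.96 in DU6, against 3.76, 4.54, 4.59, 4.29 and 4.19 in FztDU. Col27a1, a fibril-forming collagen of cartilage, had 4.46, 4.15, 3.63, 4.76 and 4.34 in DU6, against 3.86, 3.89, 4.43, 4.34 and 3.81 in FztDU. Col2a1, the main collagen of cartilage, had 4.05, 4.10, 4.09, 4.16 and 4.76 in DU6, against 3.94, 4.65, 4.27, 4.03 and 3.54 in FztDU. All 3 overlapped between the lines. The differences of these 7 collagens lay between 0.04 for Col15a1 and 0.41 for Col5a3, and the smallest adjusted p was that of Col5a3, 0.902 in limma.

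Collagen chains that share a molecule or a fibril, and enzymes that share a complex, were then compared mouse by mouse, after the line means were taken out, in 16 pairs (Pearson r over 10 arrays, with an exact permutation of the mice within each line and Benjamini-Hochberg adjustment over the 16 pairs). No pair reached an adjusted p under 0.05, and 3 had an unadjusted p under 0.05. Col11a1 and Col11a2, the chains of the fibril-forming collagen XI, had r = 0.727 and rho = 0.835 (p = 0.00778 and 0.00444, adjusted p = 0.124 for r). Without the 2 arrays farthest from the median of Col11a1, r was 0.701 (exact permutation p = 0.139, adjusted p = 0.598). Col11a1 had 4.12, 4.21, 4.21, 4.47 and 4.47 in DU6, against 4.51, 4.36, 4.62, 4.68 and 3.65 in FztDU. Col11a2 had 6.18, 6.19, 6.32, 6.84 and 6.82 in DU6, against 6.29, 6.49, 6.32, 6.61 and 6.0 in FztDU. Both were highest in DU6 replicates 4 and 5 within DU6 and in FztDU replicate 4 within FztDU, and both were lowest in FztDU replicate 5. Without FztDU replicate 2 the adjusted p of this pair was 0.0222, but no pair passed when any other single array was left out. After centring the arrays on clusters of like signal r was 0.671 (adjusted p = 0.129). After quantile normalization r was 0.603 (adjusted p = 0.429), and without the 4 arrays that stand apart it was 0.563 over 6 arrays (exact permutation p = 0.417).

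Col8a1 and Col8a2, the chains of the network collagen VIII of endothelial and corneal membranes, had r = 0.766 and rho = 0.733 (p = 0.0412 and 0.0550, adjusted p = 0.220 for r). Col8a1, called expressed in neither line, had 5.28, 4.62, 4.33, 5.35 and 5.83 in DU6, against 5.27, 5.43, 4.89, 5.14 and 5.58 in FztDU. Col8a2 had 6.37, 5.93, 6.07, 6.50 and 6.76 in DU6, against 6.14, 6.28, 6.08, 6.55 and 6.19 in FztDU. DU6 replicate 5 was highest in both genes and DU6 replicates 2 and 3 were the lowest 2 in both, and r fell to 0.406 when DU6 replicates 2 and 3, the farthest from the Col8a1 median, were left out.

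Col9a1 and Col9a2, chains of the fibril-associated collagen IX, had r = 0.729 and rho = 0.515 (p = 0.0342 and 0.174, adjusted p = 0.220 for r). Col9a1 had 4.28, 3.61, 3.88, 4.09 and 4.40 in DU6, against 4.11, 4.08, 4.01, 3.92 and 3.43 in FztDU. Col9a2 had 5.41, 4.80, 5.28, 6.02 and 5.69 in DU6, against 5.43, 5.65, 5.40, 5.86 and 4.86 in FztDU. DU6 replicate 2 and FztDU replicate 5 were the lowest of their line in both genes, and without these 2 arrays r was 0.0816, so that the relation rested on them.

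P3h4 and Plod1 had r = 0.583 and rho = 0.614 within lines (p = 0.10 and 0.0651, adjusted p = 0.362 for r), which dropped to 0.0523 without DU6 replicate 1 and FztDU replicate 4, the 2 arrays farthest from the median of Plod1. P3h4 and P3h3 had r = -0.314, and P3h1 and Crtap had r = -0.317, the lowest of the 16 (p = 0.292 and 0.337). Col4a1 and Col4a2, whose starts lie back to back in the windows printed above and overlap by 21 bases, had r = 0.406 (p = 0.252), which was -0.0334 without the 2 arrays farthest from the median of Col4a1. The same arrangement of starts holds for Col4a3 and Col4a4, 72 bases apart (r = 0.539, p = 0.150), and for Col4a5 and Col4a6, 1309 bases apart (r = -0.0006, p = 0.999).

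**Figure D5:**
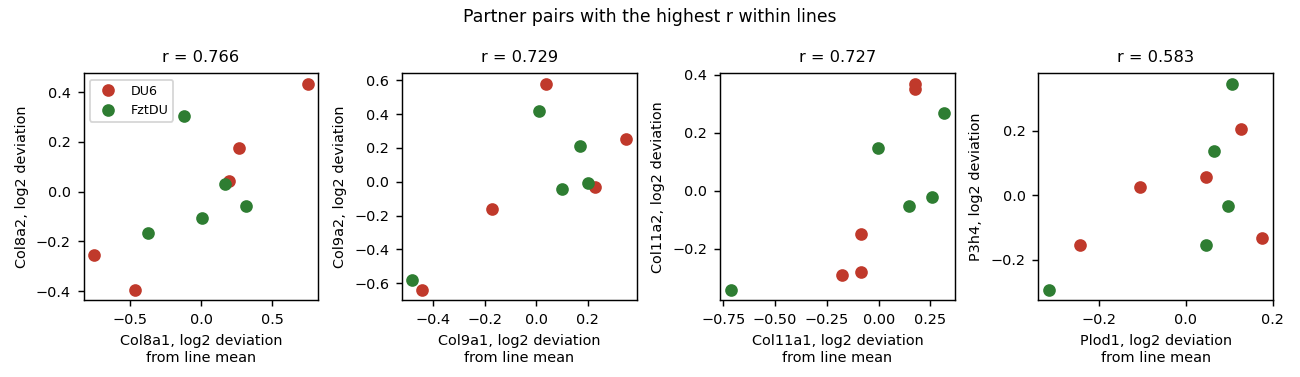
Log2 deviation from the line mean of the first gene (horizontal axis) and the second gene (vertical axis) of the 4 partner pairs with the highest Pearson r, 10 arrays each, DU6 in red and FztDU in green. The values of r are 0.766, 0.729, 0.727 and 0.583, and the adjusted p of each is over 0.05.

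Other genes of collagen synthesis, assembly and turnover were counted in 6 lists, with 72 clusters in all. In limma 0 of the 72 were called and 0 reached an adjusted p under 0.05. With an unadjusted p under 0.05 there were 4, each of them higher in DU6 (5.56%, beside 2.7% of all clusters higher at that threshold and 5.86% in either direction). The median difference was 0.06. These 4 fell into 2 lists, the proteins that bind collagen fibrils (2 of 11) and the proteases that degrade collagen with their inhibitors (2 of 11), whereas the partners of collagen synthesis in the endoplasmic reticulum (15 clusters), the processing and cross-linking enzymes (12), the basement membrane partners of collagen IV (13) and the collagen receptors (10) had 0 each.

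Lum, the small proteoglycan lumican that spaces collagen fibrils, had 5.89, 5.24, 6.04, 5.51 and 6.04 in DU6, against 5.21, 3.60, 4.28, 5.60 and 4.70 in FztDU. Its difference was 1.07 (standard error 0.32, adjusted p = 0.456), and FztDU replicate 4 was the 1 FztDU array within the DU6 range. Lum is also one of the 10 meningeal fibroblast markers, whose mean ran from -0.32 to 0.58 in DU6 and from -0.51 to 0.31 in FztDU, and the part of such cells in it was not tested. Bgn, the related proteoglycan biglycan, had 7.25, 6.76, 6.83, 6.77 and 7.29 in DU6, against 6.64, 6.42, 6.23, 6.75 and 6.85 in FztDU. Its difference was 0.40 (adjusted p = 0.713). Within each line Bgn was highest in the arrays rich in choroid plexus markers, and the part of such tissue was not tested. Mmp14, a membrane-bound collagenase, differed by 0.36 (adjusted p = 0.785), and Pepd, which splits the proline-containing dipeptides left from collagen, by 0.35 (adjusted p = 0.571). Sec23a, a coat protein of the vesicles that carry procollagen, was the 1 gene of the 72 without overlap (1.39%, beside 1.22% of all clusters). It had 8.62, 8.51, 8.62, 8.68 and 8.64 in DU6, against 8.84, 8.76, 8.73, 8.85 and 8.71 in FztDU, a difference of -0.16 (adjusted p = 0.902). These genes were named after their values were seen.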

How the data were processed

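Hippocampal RNA of 5 DU6 and 5 FztDU mice was hybridised to Clariom S Mouse arrays, 1 mouse per array, with groups and replicate numbers taken from the sample labels. The authors, by their methods, normalized the array intensities by SST-RMA in the Transcriptome Analysis Console with an mm10 annotation. The log2 values deposited for each cluster and array were used unchanged. They lie on a narrower scale than the authors' line averages, and the reason was not examined. From a second table with the authors' comparison of the lines, symbols, descriptions, positions and the calls of expression per line were taken, and its fold changes, p-values and line averages were left out. Arrays give no depth of counting, so the precision rests on their number.

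All 22206 clusters were fitted with limma 3.58.1 in R 4.3.3 (lmFit and eBayes, two-sided, Benjamini-Hochberg over all clusters, no filter on low values, no covariate) and called at an adjusted p under 0.05 and a fold over 2. Single genes had an exact permutation test over all 252 divisions of the arrays into 5 and 5. Covariation was tested with all 14400 arrangements of mice within lines. The fit was also run on simulated normal values with known shifts, drawn independently for each cluster. These held no effect shared by the clusters of an array, so they cannot speak to such effects. The p-values set a difference against the spread among these mice and treat the mice as independent. Whether the mice of a line were littermates is not given in the sources used here. Genes named were P3h4 and its family with Plod1, members with an adjusted or unadjusted p under 0.05, the 12 members with the largest SD within lines among those called expressed, and the pairs with the 4 highest and 2 lowest r. The members and lists were chosen with earlier results of these data known. Marker means are mean log2 deviations from each marker's mean over the 10 arrays. Alternatives were quantile normalization, median centring, leaving out the lowest 25% or 50% of clusters, eBayes with trend and robust, array weights, a replicate block, other thresholds and leaving out arrays. Chosen after seeing the data were centring on clusters of like signal for the pairs and, for Col18a1, leaving out the arrays that stand apart or those rich in choroid plexus markers. Protein features of the genes were not analysed here. Promoter windows came from RefSeq (GRCm38.p6). Figures were drawn with matplotlib 3.10.9.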

Additional observations from a re-analysis of the deposited data

Results flagged for a closer look

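In 5 of the 48 groups of 5 mice tested for a value far from the others, 1 mouse stood apart. Chance flags about 1 in 20 groups, but that rate does not hold here, because 12 of the genes were chosen for their spread and all share the same arrays. Col2a1 was 4.76 in DU6 replicate 5, with 4.05 to 4.16 in the other DU6 mice. Col9a1 was 3.43 in FztDU replicate 5, with 3.92 to 4.11 in the others. Plod1 was 5.85 in FztDU replicate 4, with 6.21 to 6.27 in the others. P3h3 was 4.73 in DU6 replicate 3, with 5.40 to 5.53 in the others. P3h2 was 5.66 in FztDU replicate 5, with 5.28 to 5.39 in the others.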

How the results depend on the processing

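The count of called genes stayed at 0 of 55 under every alternative but those that change the threshold, with 1, P3h4, at a fold over 1.5 or with no fold threshold, and 0 of 72 among the other collagen pathway genes under every alternative. P4ha3 stayed lower in DU6 (-0.91 to -0.62) and Col6a5 as well (-0.38 to -0.15), and neither was called. The median difference of the genes ran from -0.12 to 0.08. The genes without overlap between the lines were 4 without the 3 arrays rich in choroid plexus markers (beside 5.90% of all clusters) and 4 without the 4 arrays that stand apart (beside 11.8%), in both cases because Col9a3 and Col6a2 joined P3h4 and P4ha3. Fewer arrays leave fewer values to overlap. Between 0 and 1 partner pairs had an adjusted p under 0.05 when 1 array was left out. With the replicate number as a block 0 genes were called and 0 had an adjusted p under 0.05, and 20 clusters in place of 25 were called over the array. Of 5 pairs of equal number, 3 had deviations correlated with r over 0.1 (mean r 0.104, against -0.026 for other numbers), and 5 of the 10 arrays correlated best with their own number. As the labels give no pairing and not every pair passed 0.1, the numbers were not treated as pairs. The Col18a1 difference, 0.59 in all arrays, was 0.51 without the 3 arrays rich in choroid plexus markers. Without the 4 arrays that stand apart, which are its 4 highest, it was -0.09. Both alternatives were chosen after seeing the data, and the cause was not tested.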
